A study of Drosophila melanogaster with 2 samples.

Results

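The vacuolar ATPase (V-ATPase) subunit genes of Drosophila melanogaster were examined for binding of Slbo, a fly C/EBP protein, in embryos. Members were the protein-coding genes whose symbol begins with Vha followed by a digit or a capital letter, which gave 33 of the 13945 protein-coding genes on the 6 chromosome arms. ChIP-seq, which recovers and sequences the DNA bound by a chosen protein, had been done on whole embryos of strain slbo-GFP, 8 to 24 h old, in which a transgene makes Slbo fused to eGFP. There were 2 biological replicates in 1 group, with no control samples analysed here, so no contrast between conditions was possible. The labels give an anti-GFP antibody in the description and slbo as the antibody, and do not say whether untagged Slbo was also present. The sample is the whole animal, so a peak cannot be placed in a tissue.

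V-ATPases are rotary proton pumps that spend ATP to acidify lysosomes, endosomes and secretory vesicles, and in some epithelia they sit in the plasma membrane and energise ion transport, as in the Malpighian tubules of insects. A V-ATPase has a soluble part, V1, that splits ATP, and a membrane part, V0, that carries protons. Flies encode several subunits by more than 1 gene, and 1 paralogue of each subunit is generally known as the broadly used, epithelium-rich form while many of the others are more restricted. From that background knowledge 13 members were taken as an epithelial set (Vha68-2, Vha55, Vha44, Vha36-1, Vha26, Vha14-1, Vha13, VhaSFD, Vha100-2, Vha16-1, VhaPPA1-1, VhaAC39-1 and VhaM9.7-b), and the other 20 formed the comparison. Neither their expression nor their proteins were measured here. Both sets were drawn up with earlier results of these data known.

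A promoter summit here means that the highest point of a peak lies no more than 1 kb from an annotated start of the gene. In the series-level thresholded list, which combines the replicates, 14 of the 33 members had one (42.4%). Over all protein-coding genes the share was 36.4%, so the count for the whole family was near the background. The replicates' own thresholded lists gave 13 members in replicate 1 (all genes 34.1%) and 12 in replicate 2 (all genes 26.7%), and 11 members were in both (33.3%, all genes 25.4%). The conservative thresholded list held the same count as the series-level one, 14 members (all genes 34.8%).

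The members with a promoter summit were unevenly spread over the epithelial set and the other members. These sets are not matched paralogues. Vha55, Vha44, Vha26, Vha13 and VhaSFD are the only genes of their subunits. The other members include the accessory genes VhaAC45 and VhaAC45RP. Of the epithelial set, 10 of 13 (76.9%) had a promoter summit, and of the other members 4 of 20 did (all genes 36.4%). Replicate 1 had 9 of 13 and 4 of 20 (all genes 34.1%). Replicate 2 had 9 of 13 and 3 of 20 (all genes 26.7%). The 3 genes of the epithelial set without one in the series-level list were Vha55, VhaPPA1-1 and VhaAC39-1. The 4 other members with one were Vha68-1, Vha16-5, VhaAC39-2 and VhaM9.7-c. No test was made of the difference between these sets, which were chosen with earlier results of these data known.

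**Figure D1:**
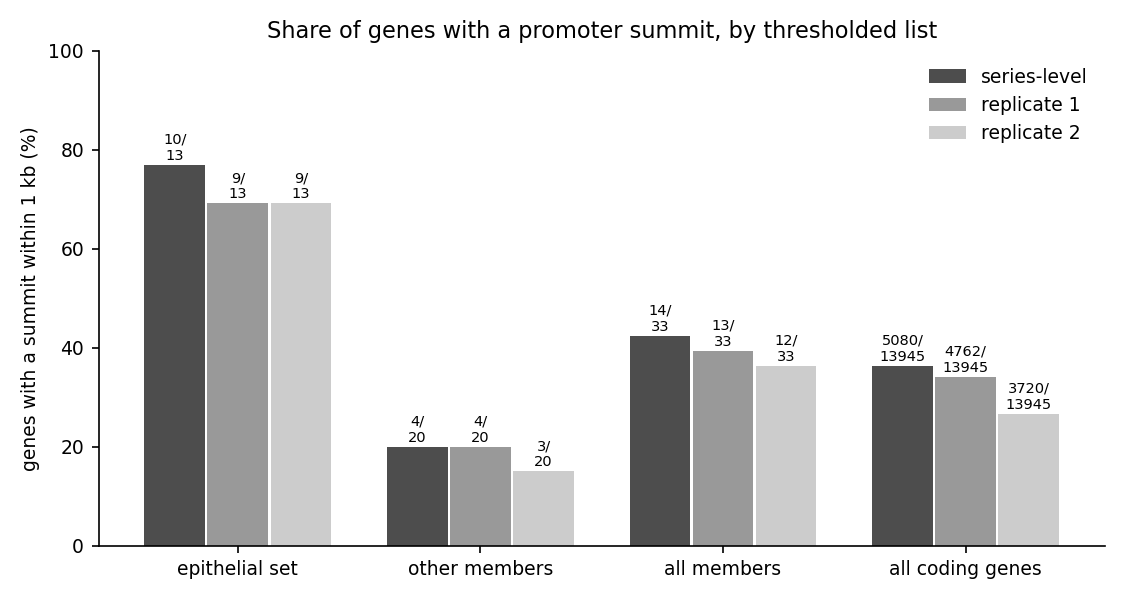
Percentage of genes that had a promoter summit in the series-level, replicate 1 and replicate 2 thresholded lists, with the counts above each bar. The epithelial set stood at 69.2% to 76.9% in the 3 lists, the other members at 4, 4 and 3 of 20, and all coding genes at 26.7% to 36.4%.

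A gene close to another gene's start shares its promoter region, and such genes carried summits more often throughout the genome. Of the coding genes with another coding start site within 1 kb, 53.5% had a promoter summit, and of those with none, 23.6%. Of the 15 members with such a neighbour 9 had a promoter summit, and of the 18 without one 5 did, which was close to these shares. The epithelial set was richer in close neighbours, at 8 of 13 genes against 7 of 20. Within the genes that have a neighbour, 7 of 8 of the epithelial set and 2 of 7 of the others had a promoter summit. Within those that have none, 3 of 5 and 2 of 13 did. The part of the neighbours in the difference between the sets was not tested further.

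The bases around the summits are shown for 3 of the strongest member peaks, the Vha55 peak of the ranked lists among them, and for 3 peaks that held a motif described below. Each line gives 50 bases to either side of the summit, from RefSeq's copy of the dm6 genome and on the strand of the member, with motif matches in capitals.
Vha16-5 (chr2L:10737276-10737376, minus strand): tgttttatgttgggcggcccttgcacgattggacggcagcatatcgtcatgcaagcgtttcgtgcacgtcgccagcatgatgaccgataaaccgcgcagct
Vha100-2 (chr3R:18397192-18397292, minus strand): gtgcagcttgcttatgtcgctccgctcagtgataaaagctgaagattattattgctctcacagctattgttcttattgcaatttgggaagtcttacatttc
Vha55 (chr3R:12627833-12627933, minus strand): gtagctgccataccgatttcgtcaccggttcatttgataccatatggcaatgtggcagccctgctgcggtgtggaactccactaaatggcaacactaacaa
Vha13, weaker peak (chr3R:19644956-19645056, minus strand): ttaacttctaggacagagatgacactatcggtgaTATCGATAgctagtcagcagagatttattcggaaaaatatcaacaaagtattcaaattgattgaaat
Vha68-2 (chr2L:12974100-12974200, plus strand): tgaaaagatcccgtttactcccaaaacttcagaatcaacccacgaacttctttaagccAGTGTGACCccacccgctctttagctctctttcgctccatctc
VhaM9.7-c (chr3L:4186843-4186943, minus strand): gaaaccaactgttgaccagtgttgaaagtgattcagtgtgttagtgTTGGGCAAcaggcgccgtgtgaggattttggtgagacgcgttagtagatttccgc

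In V1, 8 of 13 members had a promoter summit (all genes 36.4%). Each replicate's own list held 7 of 13 (all genes 34.1% in replicate 1 and 26.7% in replicate 2), and with nearest-gene assignment 4 of 13 were left (all genes 27.5%). The values that follow are the signal values of the strongest promoter peak in the series-level list, then in each replicate's own list. The signal value is the authors' strength measure of a peak. No scaling for sequencing depth is stated, so sizes are read within a list.

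Subunit A, the catalytic subunit, has 3 genes. Vha68-1 had a signal of 472 (264 in replicate 1, 198 in replicate 2), and Vha68-2 had 212 (148 and 67.4). Vha68-3, just downstream of Vha68-2 on 2L, had no thresholded summit, and its strongest peak in the series-level ranked list, which also holds peaks under the threshold, had a signal of 40.0. The stronger A-subunit promoter was thus that of the paralogue outside the epithelial set, in both replicates. The Vha68-1 summit lay 117 bp upstream of its start and 256 bp upstream of the start of mTor, the kinase of the TORC1 growth pathway, which is read in the opposite direction.

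Subunit B, which lies between the A subunits and binds nucleotide, is encoded by Vha55 alone. Its peak (chr3R:12627750-12628014 in dm6) had a signal of 497 and a score of 1000, the highest score the lists use, in the series-level ranked list. The ranked lists of the replicates gave 293 and 212, again with scores of 1000. None of the 4 thresholded lists held a peak overlapping it, and the nearest series-level thresholded summit was 2579 bp away. Per the deposited descriptions the thresholded lists were made with a further input file that the ranked lists did not use. Of the 8938 ranked peaks on the arms with a score of 830 or more, the lowest score in the thresholded lists, 224 were missing from the thresholded list, and the Vha55 peak was the 23rd strongest of these. It was the only such peak within 1 kb of a member. With ranked peaks at that score counted, 15 of 33 members had a promoter summit (all genes 37.1%, and 35.5% with 15 members in the second ranked list), and 11 of 13 of the epithelial set.

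The summit of the Vha55 peak was 54 bp upstream of a Vha55 start and 148 bp upstream of a start of Snx3, a sorting nexin of endosomal recycling, which runs the other way.

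Subunits D and F form the rotor stalk of V1, and 1 paralogue of each had a promoter summit. Vha36-1 (D) had a signal of 369 (225 and 146), with its summit 53 bp upstream. Its paralogues Vha36-2 and Vha36-3 reached 33.4 and 48.2 in the ranked list, both under the threshold. Vha14-1 (F) had 575 (293 and 283), and Vha14-2 had 45.4 in the ranked list. The Vha14-1 summit lay 828 bp into the direction of transcription, beyond the end of that short gene and 300 bp upstream of Gmppa, a GDP-mannose pyrophosphorylase gene on the same strand. At the start of Vha14-1 itself the ranked list had a peak of 47.4 with a score of 598, so this member is counted only because the distance allowed is 1 kb.

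Subunits C, E, G and H, the stators and the regulatory cap of V1, are each encoded by 1 gene, and all 4 had a promoter summit (all genes 36.4%). With nearest-gene assignment (all genes 27.5%) Vha44 and Vha26 lost theirs, while Vha13 and VhaSFD each kept a promoter summit. Vha13 (G) had the strongest, with a signal of 383 (257 and 127), 95 bp upstream of its start. A weaker Vha13 peak of 142 lay 620 bp upstream, 20 bp from the start of the nuclear pore gene Nup58. It was in replicate 1 with 111, while in replicate 2 it had 38.9 and a score of 737, under the threshold. Vha44 (C) had 161 and was in the list of replicate 1 (106) only. The Vha44 summit lay 93 bp upstream of its start and 30 bp from a start of Hmgs, which runs the other way. In replicate 2 the ranked peak at Vha44 had a signal of 57.2 and a score of 79. Vha26 (E) had 116 (60.3 and 55.1), and lay 84 bp upstream of the splicing factor gene noi and 220 bp upstream of Vha26. VhaSFD (H) had the weakest promoter peak among the members, 94.2, in the 5′ UTR 94 bp after the start. It was in the list of replicate 2 (44.6, score 852, just inside the threshold) but not in that of replicate 1, where a ranked peak of 58.4 had a score of 58.

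The scores at Vha44, Vha26 and VhaSFD did not follow the signals. In replicate 2 Vha26 was kept at 55.1 and Vha44 was not at 57.2. In replicate 1 Vha26 was kept at 60.3 and VhaSFD was not at 58.4. The authors' score comes from the irreproducible discovery rate (IDR), which measures whether 2 peak lists rank a peak alike. Among the members with no thresholded promoter peak, Vha55 aside, the nearest to the threshold was Vha100-5 in replicate 1, with a score of 780. The strongest Vha100-5 peak had a score of only 198 in the series-level ranked list and 190 in that of replicate 2.

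**Figure D2:**
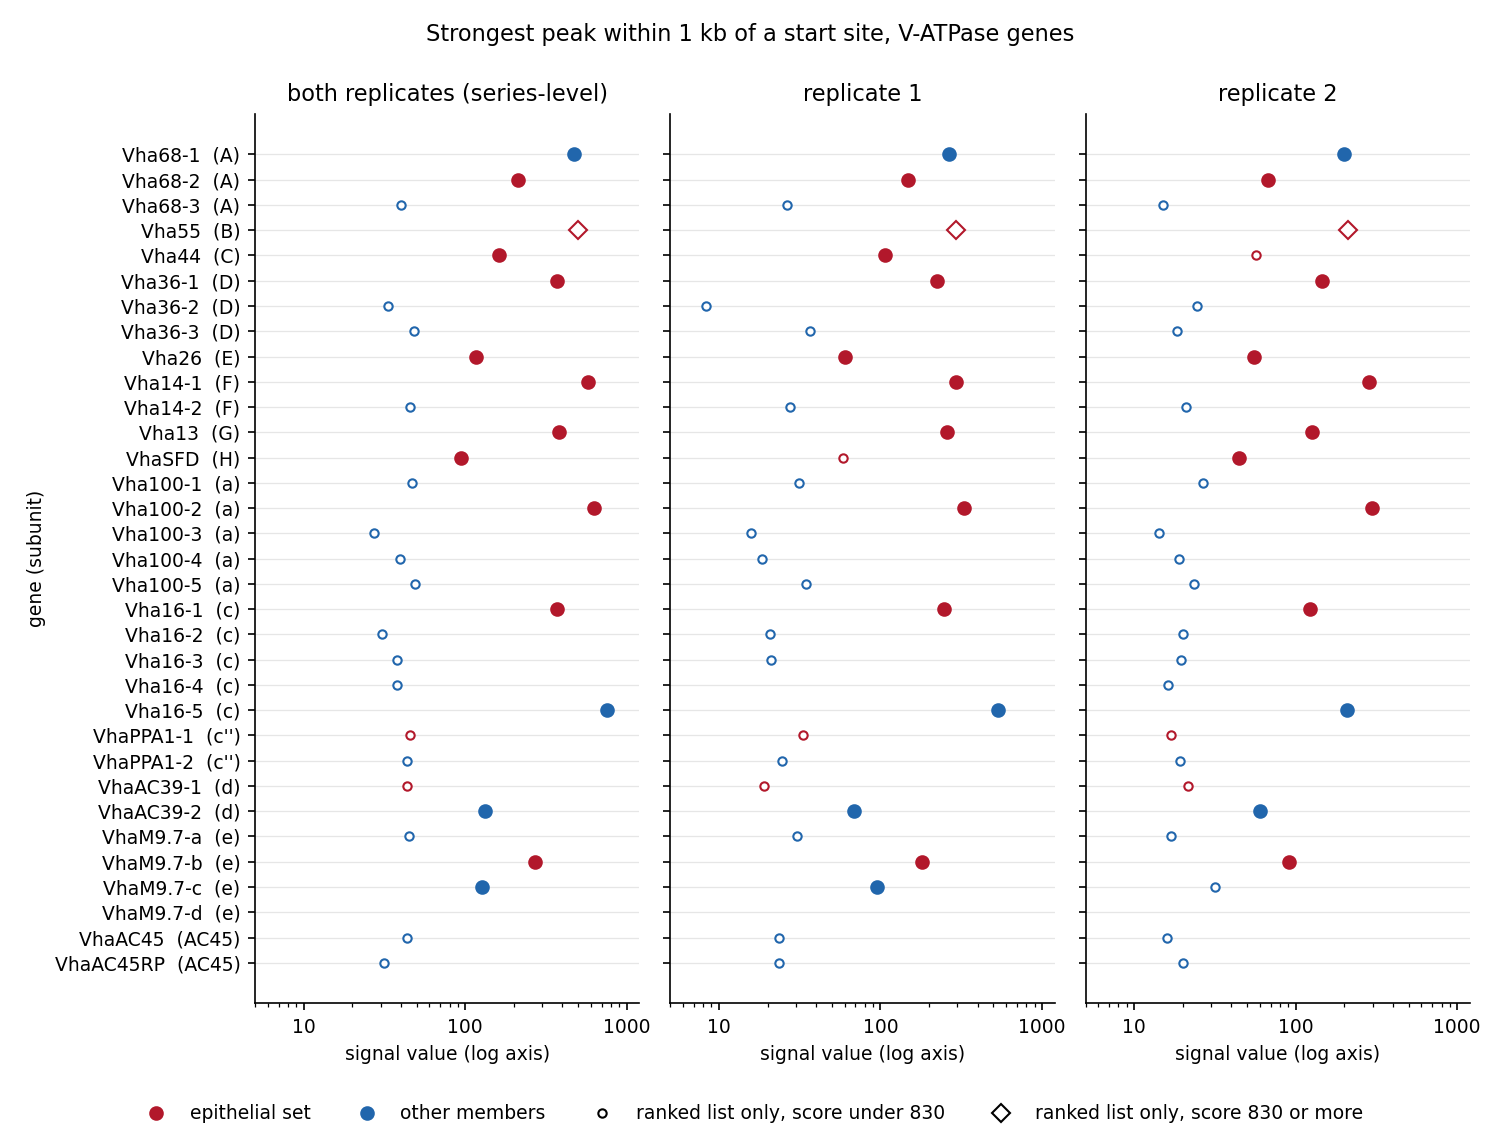
Signal value (log axis) of the strongest peak within 1 kb of a start site for each of the 33 genes, ordered by subunit, in the series-level, replicate 1 and replicate 2 lists. Red marks the epithelial set and blue the other members, filled circles are thresholded peaks, small open circles are peaks of the ranked list with a score under 830, and the diamonds are the Vha55 peak, with 497, 293 and 212, which the ranked lists alone hold. Panels are read one at a time, since no scaling between lists is stated.

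In V0, 6 of 18 members had a promoter summit, or 33.3%, slightly below the 36.4% of all genes. Replicate 1 had 6 of 18 (all genes 34.1%) and replicate 2 had 5 of 18 (all genes 26.7%). Subunit a, the large membrane subunit that forms the proton half-channels and directs the pump to its compartment, has 5 genes, of which Vha100-2 alone had thresholded peaks. It had 2 of them within 1 kb of a start. The stronger had a signal of 631 (327 and 297) and lay in an intron, 314 bp upstream of 1 of the 2 Vha100-2 starts. It also lay in the 5′ UTR of Vti1b, a SNARE gene of vesicle fusion read in the opposite direction. The weaker, 195 (111 and 88.3), lay 106 bp upstream of the other start. Another peak, in an intron 3307 bp from a start, had 230 (112 and 112). The other a-subunit genes reached 27.4 (Vha100-3), 39.7 (Vha100-4), 47.1 (Vha100-1) and 49.0 (Vha100-5) in the series-level ranked list. Vha100-4 is the next coding gene downstream of Vha100-2, and its nearest thresholded summit was the intron peak of Vha100-2, 3816 bp away.

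Subunit c, the proteolipid of the rotating ring, also has 5 genes, of which 2 had thresholded peaks. Vha16-1 had a signal of 368 (248 and 123), 145 bp upstream of a start, and no other coding start lay within 1 kb of the summit. Vha16-5 had the highest promoter signal of any member, 755 (538 and 209). That summit was 283 bp upstream of Vha16-5 and 19 bp upstream of CG12299, which runs the other way. A second Vha16-5 peak of 130 lay 919 bp from its start but 53 bp upstream of the nuclear pore gene Nup107. Replicate 2 had that second peak at 55.4 and a score of 815, just outside the threshold. Neither Vha16-5 summit was thus nearest to the start of Vha16-5. The remaining c-subunit genes reached 30.4 (Vha16-2), 38.0 (Vha16-3) and 38.0 (Vha16-4), all under the threshold.

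Among the smaller V0 subunits, 1 of the 3 genes of the epithelial set had a promoter summit. For subunit d, which couples the ring to the stalk, VhaAC39-2 had a signal of 133 (68.4 and 59.8), 139 bp upstream of its start with no other coding start nearby, and VhaAC39-1 of the epithelial set reached 43.5 in the ranked list. For c′′, a ring subunit, neither VhaPPA1-1 (45.8) nor VhaPPA1-2 (43.5) passed the threshold. For the small membrane subunit e, VhaM9.7-b had 269 (182 and 90.3). Its summit was 51 bp upstream of COX8, a cytochrome c oxidase subunit gene of the mitochondrial respiratory chain, and 364 bp upstream of VhaM9.7-b. VhaM9.7-c had 127, 28 bp upstream of its start, and was in the list of replicate 1 (94.9) only. In replicate 2 its ranked peak had 31.6 and a score of 335. VhaM9.7-a reached 44.9, and VhaM9.7-d had no peak within 1 kb in any of the 4 ranked lists.

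The accessory protein AC45, which binds V0 and is involved in sorting of the pump, has VhaAC45 and the related VhaAC45RP. Neither passed the threshold, with ranked signals of 43.6 and 31.3. ATP6AP2, whose older symbol is VhaM8.9, encodes the other accessory protein and falls outside the symbol rule. Looked up after the other values had been seen, it had a promoter peak of 218 (153 and 61.6).

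The members without a promoter summit had weak ranked peaks only. Of the 18 that had none at a score of 830 or more, 17 had some ranked peak within 1 kb, with a median signal of 43.5 and a range of 27.4 to 49.0. Over the 8773 coding genes without one, 79.6% had some ranked peak, with a median of 38.8 and a range of 2.12 to 222. The strongest thresholded promoter signals of all genes began at 2.02, so these ranges overlapped. The members were split by score in the same way. The weakest thresholded promoter peak of a member was 94.2, and no member fell between 49.0 and 94.2 in the series-level list. The nearest thresholded summits to the members without a promoter summit were 1647 bp (VhaPPA1-2) to 36887 bp (Vha100-5) away.

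Among genes with a promoter summit, the median of the members' strongest promoter signals was 319, and that of all 5080 coding genes with one was 183. With nearest-gene assignment the medians were 203 and 167. In replicate 1 the medians were 225 and 122, and in replicate 2 they were 125 and 101. Of the 14 members, 9 lay above the median of all genes and 2, Vha16-5 and Vha100-2, were in the top 10% of genes. Both of these strongest summits were nearer to another gene's start, CG12299 at 19 bp and Vti1b at 247 bp. The highest promoter signal of any gene was 5564.

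**Figure D3:**
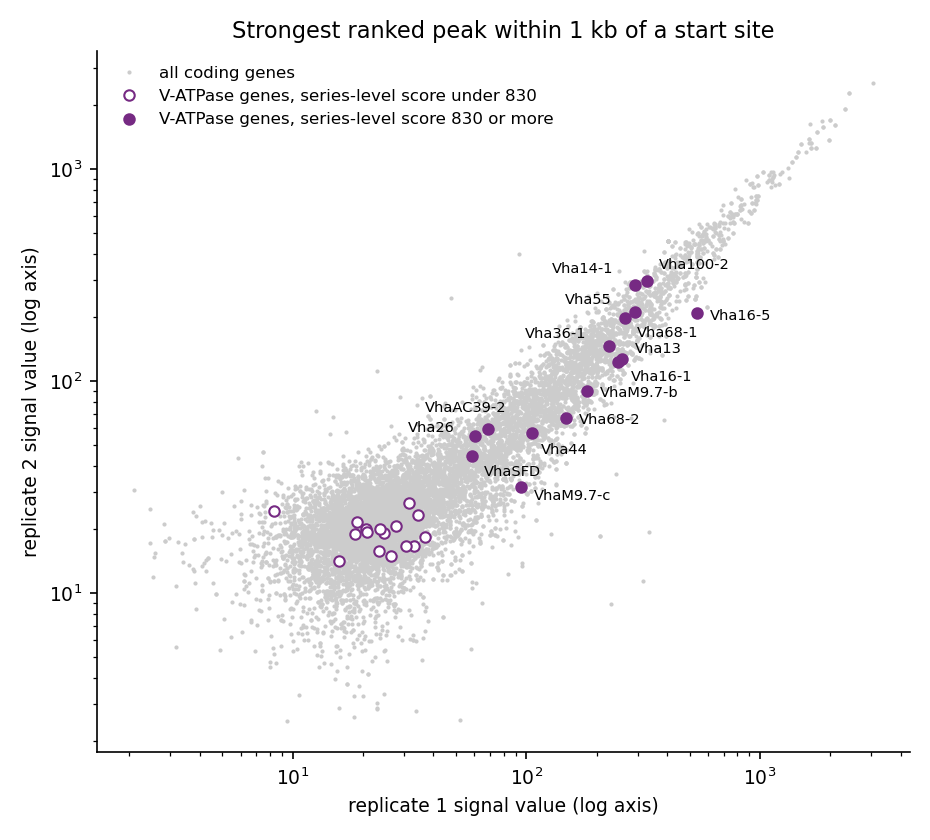
Signal value in replicate 2 against replicate 1 (both log axes) of each gene's strongest ranked promoter peak, for all coding genes with one in both (grey) and for V-ATPase genes (purple). Filled points have a series-level score of 830 or more and lie apart from the open points. Vha16-5, at 538 and 209, lies at the edge of the grey cloud toward replicate 1.

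The members differed in how their signals compared between the replicates. Over the 3540 genes with a promoter summit in both, the ratio of the replicate 1 to the replicate 2 signal had a median of 1.40, and from the 5th to the 95th percentile it ran from 0.941 to 2.20. Vha16-5 had a ratio of 2.57, higher than 98.7% of these genes, and Vha68-2 had 2.19, higher than 94.7%. Vha13, Vha16-1 and VhaM9.7-b had ratios of 2.02 to 2.03. Vha14-1 (1.03), Vha26 (1.09), Vha100-2 (1.10) and VhaAC39-2 (1.14) were below the median. By thresholded peaks Vha16-5 was thus the strongest member in replicate 1 and ranked 3 in replicate 2, after Vha100-2 and Vha14-1. With 1 value per replicate these ratios have no error of their own.

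Most member summits lay just upstream of a start. For the strongest promoter peak, 12 of 14 members had the summit upstream (85.7%, all genes 81.9%). The median distance was 142 bp, and over all genes it was 152 bp. Summits within 150 bp were found for 8 of 14 (57.1%, all genes 49.7%). In 7 of 14 members (all genes 47.4%) the strongest summit lay between a start of the member and a start of a gene read away from it. These were Vha13, Vha16-5, Vha26, Vha36-1, Vha44, Vha68-1 and VhaM9.7-b. The Vha44 summit also lay in the 5′ UTR of Hmgs, the gene across from it. These shares were near those of all genes with a promoter summit.

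Which gene of such a pair a peak belongs to cannot be told from a peak list, and the count of members depended on it. The strongest summit was nearest to the member's own start in 7 of 14 members, and over all genes with a promoter summit in 70.6%. When each summit was given only to the coding gene with the nearest start, 8 of 33 members kept a promoter summit (all genes 27.5%), with 5 of 13 in the epithelial set and 3 of 20 in the others. The members lost were Vha14-1, Vha16-5, Vha26, Vha36-1, Vha44 and VhaM9.7-b, and the 3 with the closest competing start were Vha16-5 and Vha36-1, each 19 bp from another gene, and Vha44, 30 bp from Hmgs, the HMG coenzyme A synthase gene.

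**Figure D4:**
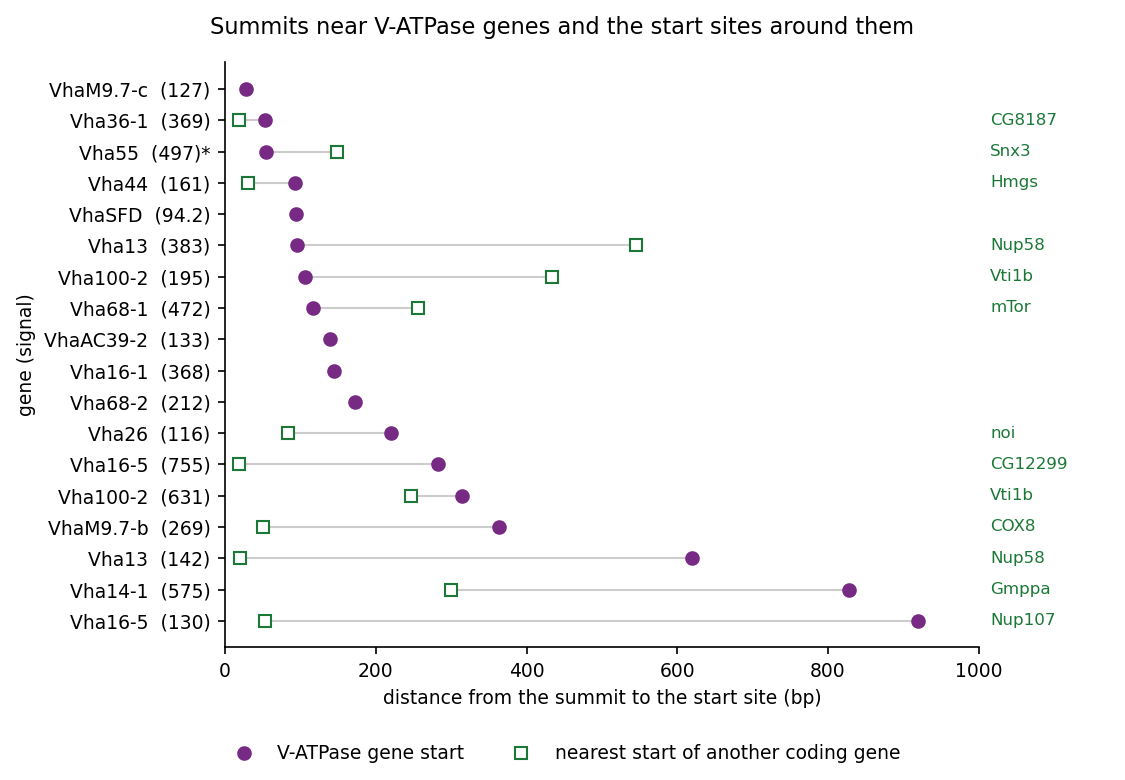
Distance (bp) from each summit within 1 kb of a V-ATPase gene to the start of that gene (filled circles) and to the nearest start of another coding gene (open squares, named at the right), for 17 series-level thresholded peaks and the Vha55 ranked peak (asterisk), with signal values in parentheses. The other gene's start is the closer one for 9 of the 18 peaks, among them both Vha16-5 peaks.

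Short sequence motifs were searched on both strands in the 101 bases around each summit, which is shown above for 6 peaks. The full C/EBP palindrome TTGCGCAA was at 0 of the 17 member summits, and at 0.150% of the 4679 promoter summits of all coding genes. Its looser form TTGCNNAA, which includes the palindrome, was at 2 of 17, near Vha14-1 and VhaM9.7-c, and at 9.25% of all promoter summits. In the VhaM9.7-c sequence it is the run TTGGGCAA, read on the other strand. The DNA replication-related element core TATCGATA, which binds DREF and BEAF-32, was at 1 member summit, the weaker Vha13 peak beside Nup58, and at 4.27% of all promoter summits. The core-promoter motif GGTCACACT, bound by M1BP and added after values had been seen, was at 1 member summit, Vha68-2, where it is the run AGTGTGACC, and at 1.54% of all. Thus 13 of the 17 member summits held none of the motifs searched. The share of all promoter summits with none was not counted, so this is not read as a lack of motifs at the members. The median A and T content of the windows was 60.4% at member summits and 61.4% at all promoter summits.

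The E-box CACGTG is the core of the CLEAR element, through which Mitf, the fly counterpart of the lysosomal regulator TFEB, acts on V-ATPase genes. It was at 0 of 17 member summits and at 0.898% of all promoter summits. In the fixed region from 250 bases before to 50 after each start site, 5 of 33 members (15.2%) and 5.34% of all coding genes had it. The members were Vha44, Vha55, Vha68-2, VhaAC45RP and VhaM9.7-d, of which 2, Vha44 and Vha68-2, had a promoter summit in the series-level list. Its longer form TCACGTGA, which contains the E-box, was in that region of Vha44 and Vha68-2, and of 28 of all 13945 coding genes (0.201%). The Vha44 match was centred 48 bp from the summit, so only part of it fell in the summit window. In Vha55 the E-box was centred 112 bp from the summit, and in Vha68-2, which has 5 start sites, it was 1157 bp away. Genes with several starts had more sequence searched. Of the other motifs, TTGCNNAA was in the fixed region of 9 of 33 members (27.3%, all genes 28.1%) and TTGCGCAA of 0 (all genes 0.552%). TATCGATA was in that of 2 (6.06%, all genes 10.2%) and GGTCACACT of 4 (12.1%, all genes 6.78%). The letters are given for Vha68-2 and Vha55, with the E-box or its longer form in capitals. The Vha55 line runs from the summit region to the E-box.
Vha68-2 (chr2L:12975273-12975340, plus strand): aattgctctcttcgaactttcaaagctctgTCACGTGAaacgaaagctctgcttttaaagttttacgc
Vha55 (chr3R:12627748-12627903, minus strand): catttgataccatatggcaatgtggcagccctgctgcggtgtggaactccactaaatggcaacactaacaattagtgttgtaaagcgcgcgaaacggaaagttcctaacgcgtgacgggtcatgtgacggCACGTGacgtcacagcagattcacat

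Genes that work with the V-ATPase were counted from a list of 28, all of which were matched. Promoter summits were found at 16 of 28 in the series-level list (all genes 36.4%), 17 in replicate 1 (all genes 34.1%) and 10 in replicate 2 (all genes 26.7%). The conservative list held 14 of 28 (all genes 34.8%), and nearest-gene assignment left 12 of 28 (all genes 27.5%). For 10 of the 16 series-level genes (62.5%, all genes 59.8%) another coding start lay within 1 kb of the strongest summit. The median of the 16 strongest signals was 182, near the 183 of all genes. Among the genes listed for V-ATPase assembly, 3 of 4 had one, and all 4 did in each replicate's own list. Those in the series-level list were CG7071 (769; 527 and 244 in the replicates), CG5969 (402; 223 and 168) and Rbcn-3A (185; 138 and 46.2), a rabconnectin that promotes V-ATPase assembly. Its partner Rbcn-3B had a promoter summit in each replicate's own list (46.6 and 62.7), while its series-level ranked peak of 123 had a score of 722. Of the lysosomal nutrient sensing genes, which link the V-ATPase to TORC1, 5 of 7 had one, with 5 in replicate 1, 3 in replicate 2 and 4 in the conservative list (all genes 34.8%). The highest was at Lamtor3 (2051; 1131 and 922), a Ragulator subunit, with RagA-B (211; 115 and 99.1), a Rag GTPase, and Lamtor5 (210; 141 and 68.1), another Ragulator subunit.

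Of the ion exchangers and chloride transporters that work beside the pump, 3 of 8 had one, or 37.5% beside the 36.4% of all genes, and 2 had one in replicate 1 (all genes 34.1%) and 1 in replicate 2 (all genes 26.7%). The highest was at Nhe3, a sodium and proton exchanger, with 452 (313 and 148). Of the lysosomal membrane proteins and proteases, 5 of 8 had one. The conservative list held 3 of these 8 (all genes 34.8%), replicate 1 held 6 and replicate 2 held 2, a smaller share than the 26.7% of all genes there. The highest was at CtsL1, a cathepsin, with 258 (159 and 103). Mitf, the only transcription factor of the list, had no ranked peak within 1 kb of a start. Of the 15 genes with ATPsyn symbols, which encode subunits of the mitochondrial ATP synthase, the related rotary ATPase, and their paralogues, 7 had a promoter summit (all genes 36.4%), with a median signal of 164. Replicate 1 had 7 (all genes 34.1%), the conservative list 5 (all genes 34.8%) and replicate 2 had 3 (all genes 26.7%).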

How the data were processed

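The files were 8 peak lists on dm6, 4 thresholded and 4 ranked, at the series level and for each replicate. Aligner, peak caller and versions: not given in the sources used here. Column 7 is, in the deposited lists, the peak caller's signal value, and column 5 is a score that the authors set from the IDR, with a minimum of 830 in the thresholded lists. Read counts are not part of the lists. Depth is therefore unknown and no interval is given. The series-level list held 8786 peaks, and those of replicates 1 and 2 held 7151 and 5445. Labels state sonication and biological replicates.

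Gene models were Ensembl release 115 (BDGP6, dm6 coordinates), and every start site of a coding gene on the 6 arms was used. Summits were given to every gene with a start within 1 kb. Sequence came from the RefSeq copy of the build. Scripts used Python 3.11.15 and pandas 2.3.3 and were tested on simulated peaks and planted motifs. No significance test was made: there is 1 group, and the members, sets, partner list and motifs were chosen with earlier results of these data known. All members are named, with the 8 partner genes of highest signal. Rbcn-3B, Mitf and ATP6AP2 were named after their values were seen. Alternatives changed the distance, list, assignment, replicate and motif window.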

Additional observations from a re-analysis of the deposited data

How the results depend on the processing

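The count of members with a promoter summit, 14, was 13 at 500 bp, 16 at 2 kb, 12 among peaks above the median signal, 14 with any overlap of the peak, 15 with ATP6AP2 added and 12 to 13 in a single replicate's list. With nearest-gene assignment it fell to 8, the epithelial set to 5 of 13 and the members' median signal to 203. That assignment gives a summit only to the coding gene with the nearest start, and the reason for the fall was not tested. The epithelial set was otherwise between 8 and 11 of 13, and the other members between 3 and 6 of 20. The share of all genes was 43.2% at 2 kb, 25.4% above the median signal, 27.5% by nearest gene and 26.7% to 34.1% in a single replicate's list. Partner genes with a summit were 9 above the median signal and 10 to 17 in single lists. TATCGATA was at 0 to 1 members in single lists. TTGCNNAA was at 4 members with 100 bp each side and at 1 to 3 in single lists, and CACGTG at 1 with 100 bp each side. No paired analysis was possible because there is 1 group. Depth is unknown, so a member under the threshold is not shown to be unbound.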

Other observations

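Beyond the promoters, 3 members had a thresholded peak elsewhere in the gene. That of Vha100-2 is given above. Vha13 had a peak of 77.6 in its 3′ UTR (47.9 in replicate 1 and none in replicate 2), 424 bp from the start of subdued, a chloride channel gene. Vha16-1 had a peak of 72.8 in an intron 1630 bp from a start (49.2 in replicate 1 and none in replicate 2).

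Some members had strong peaks beyond 1 kb that lay nearest to another gene. A peak of 404 lay 1752 bp from Vha36-3, nearest to AANATL7, and a peak of 423 lay 3372 bp from VhaM9.7-a, nearest to CG1309.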
